A study of Arabidopsis thaliana with 126 samples.

Results

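The *ein6-1 een-1* double mutant and the *ein2-45* mutant of *Arabidopsis thaliana* are both insensitive to ethylene (ET), and their RNA-seq profiles in air were compared here. The comparison rests on 4 libraries, 2 per genotype, of the 126 samples in the series. The 4 libraries were taken by their genotype and treatment labels. The seedlings were 3 days old, grown in the dark on Linsmaier and Skoog medium in hydrocarbon-free air, and all carried the Landsberg *erecta* (L*er*) background. The double mutant came from 1 fast-neutron mutagenized line. Its *ein6-1* allele is a small deletion in the fifth exon of *REF6* (*EIN6*, AT3G48430) that leads to a premature stop codon. Its *een-1* allele is an inversion on chromosome 4 that joins *AQI* (AT4G38220) with the 5′ untranslated region of *EEN* (AT4G38495). *ein2-45* carries a point mutation in *EIN2* (AT5G03280). The air libraries of L*er* and of the *ein6-1* and *een-1* single mutants, 2 of each, serve below as points of orientation. Libraries of both genotypes after 4 hr of ET serve as a second comparison. The study describes libraries of a genotype as biological replicates, and the labels do not name separate plantings. The p-values measure a spread between libraries of the same group. It was pooled over 20 libraries (10 groups of 2) and is not that of the 4 compared libraries alone.

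REF6 is a demethylase that removes the repressive mark H3K27me3 and reaches its targets through zinc fingers that bind a short DNA motif. EEN belongs to INO80, a chromatin remodeler that takes the histone variant H2A.Z out of nucleosomes. EIN2 is the central protein of ET signaling: in the presence of the hormone its C-terminal part moves to the nucleus and brings about EIN3-dependent transcription. Dark-grown Arabidopsis seedlings live on reserves laid down in the seed, keep their plastids as etioplasts with little photosynthetic gene expression, and elongate the hypocotyl.

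Levels are transcript abundances scaled to a fixed total in each library (TPM) and then divided by a factor per library that sets the median ratio between libraries to 1, written TPM below. These factors were 1.14 and 1.07 in *ein6-1 een-1* and 1.03 and 0.937 in *ein2-45*. Read depth cannot be recovered from TPM and is unknown. Ribosomal RNA took 3.34% and 6.16% of TPM in *ein6-1 een-1*, against 4.97% and 13.2% in *ein2-45*, where the second library was the highest of the 4. The 2 libraries of *ein6-1 een-1* correlated with r = 0.987 and those of *ein2-45* with r = 0.984, across genes. Both genotypes expressed the etiolated-seedling markers *PORA*, a protochlorophyllide reductase, and *PHYA*, the phytochrome of dark-grown tissue. *PORA* had 187 and 259.8 TPM in *ein6-1 een-1*, against 662 and 839 in *ein2-45*, and fell (log2 fold change -1.75, adjusted p = 2.66e-05), while *PHYA* had 214 and 238 TPM in *ein6-1 een-1*, against 224 and 244 in *ein2-45*, and did not pass the test (adjusted p = 0.832). Of 5 root markers, *COBL9* rose (log2 fold change 0.89) and *SHR*, *SCR*, *PLT1* and *PIN2* did not pass, and the 5 summed to 92.9 and 92.2 TPM in *ein6-1 een-1* and 81.1 and 85.0 TPM in *ein2-45*. The floral markers *AG* and *PI* stayed under 1 TPM in all 4 libraries. The 3 floral markers listed summed to 0.929 and 1.29 TPM in *ein6-1 een-1* and 1.57 and 0.630 TPM in *ein2-45*. With no minimum on TPM, 2 of the 3 passed the test as higher in *ein6-1 een-1*.

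Of 20592 genes tested with limma, 8162 (39.6%) differed between *ein6-1 een-1* and *ein2-45* at a Benjamini-Hochberg adjusted p below 0.05. Of these, 3815 (18.5% of all tested) were higher and 4347 (21.1%) lower in *ein6-1 een-1*. With a change of at least 2-fold in addition, 1077 genes (5.23%) were higher and 1356 (6.59%) lower. Without the rescaling of libraries 6219 genes were called, 3895 higher and 2324 lower, and the median log2 fold change of all genes moved to 0.15 from -0.0013. The direction of small differences therefore depended on the scale. Leaving out the first *ein2-45* library left 5233 calls, and leaving out any of the other 3 left 5879 to 6774. Fold changes are on the log2(TPM + 1) scale and understate the change of genes with low levels.

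The mutated genes themselves were examined first. *AQI*, an aminoacylase gene cut by the *een-1* inversion, had 9.58 and 12.2 TPM in *ein6-1 een-1* and 109 and 95.3 TPM in *ein2-45*, with 13.4 and 12.6 TPM in *een-1* and 112 and 109.8 TPM in L*er* (log2 fold change -3.12, SE 0.126, adjusted p = 1.1e-09). The libraries that carry *een-1* were thus the low ones, without overlap. *REF6* and *EEN* RNA did not mark the genotypes. *REF6* had 9.11 and 9.04 TPM in *ein6-1 een-1* and 6.71 and 7.59 TPM in *ein2-45* (log2 fold change 0.31, adjusted p = 0.282), and *EEN* had 24.9 and 30.6 TPM in *ein6-1 een-1* and 25 and 27 TPM in *ein2-45* (log2 fold change 0.08, adjusted p = 0.803). A frameshift and a fusion at the untranslated region need not lower the RNA counted for a gene, so these levels check neither label.

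*EIN2* RNA was far lower in the double mutant than in *ein2-45*. It had 8.22 and 7.66 TPM in *ein6-1 een-1* and 43 and 42.5 TPM in *ein2-45* (log2 fold change -2.29, SE 0.196, adjusted p = 3.91e-07). The other genotypes were at the level of *ein2-45* or above it, with 54.4 and 57.2 TPM in L*er*, 65.3 and 59.8 in *ein6-1* and 48.6 and 43.3 in *een-1*. After ET the log2 fold change was -2.09. The double mutant was thus the 1 low genotype of the 5, and the amount of *EIN2* mRNA is itself part of the difference between both mutants.

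The plot of the mutated loci gives each library.

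**Figure D1:**
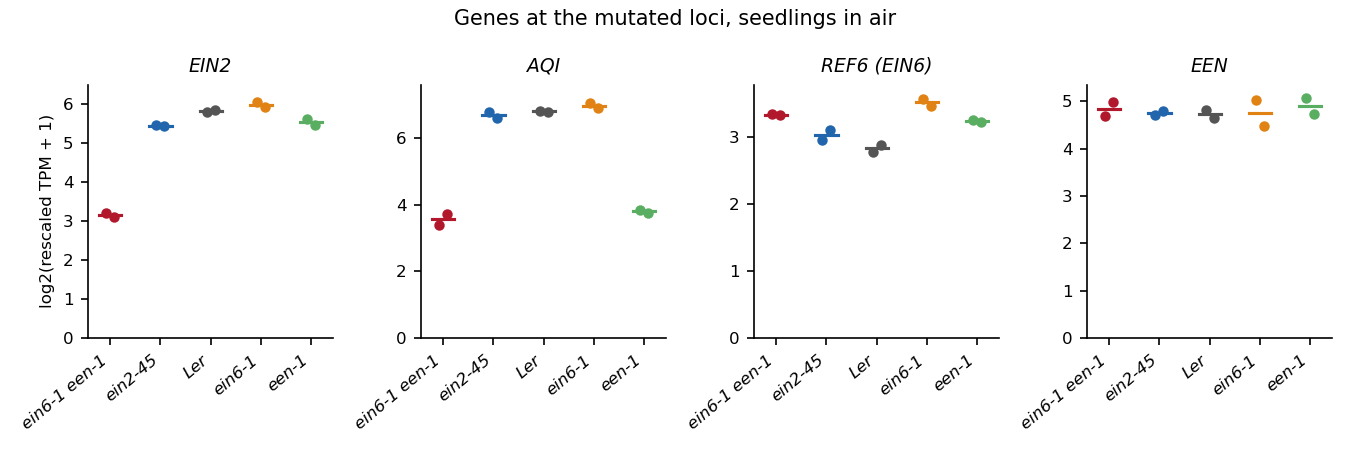
Level of *EIN2*, *AQI*, *REF6* and *EEN* in air as log2(rescaled TPM + 1) on the vertical axis, with the 5 genotypes on the horizontal axis. Points are the 2 libraries and lines their mean. *EIN2* is low in *ein6-1 een-1* alone, at 8.22 and 7.66 TPM against 43 and 42.5 TPM in *ein2-45*, and *AQI* is low in both genotypes that carry *een-1*.

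Because REF6 recognizes CTCTGCTC, CTCTGCTT, CTCTGTTC or CTCTGTTT, both strands of *EIN2* were searched for these spellings in the RefSeq TAIR10.1 genome. *EIN2* lies at chr5:787428-793404 on the plus strand, and 4 matches fell within its 5977 bases. They are printed 5′ to 3′ on the strand of the match, with the match in capitals and its coordinates, because *EIN2* was the gene of the ET pathway with the largest difference.
*EIN2*, chr5:787623-787630, plus strand, intron upstream of the start codon: aaaccctaatcCTCTGTTTttttttttatt
*EIN2*, chr5:788755-788762, plus strand, coding exon: ggtggcaattaCTCTGCTTttcaattttgc
*EIN2*, chr5:790426-790433, plus strand, coding exon: tcagtacaccaCTCTGCTTgtatcgtcatg
*EIN2*, chr5:793153-793160, plus strand, exon, untranslated: tttgattgctcCTCTGCTTcgttaattgtg
The first match lay in the intron before the start codon, 195 bases from the gene start. Over the whole gene *EIN2* held 0.669 matches per kb, against 0.441 over the 19868 protein-coding genes tested. A separate count took the 300 bases around gene starts (250 before and 50 after), a window that none of the 4 matches entered. There a match occurred for 1457 of the 19868 genes (7.33%), and for 290 of the 4269 called lower in *ein6-1 een-1* (6.79%). A match is by itself a description of letters and does not show binding. The study measured binding separately. It reports REF6 at the intron of the 5′ untranslated region of *EIN2*, where it also places motifs, and in the gene body.

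Genes of seed maturation were the most strongly raised group in the double mutant. Of 19 such genes tested, 18 rose against a background of 18.5% and none fell, with a median log2 fold change of 4.24, against -0.0013 over all genes tested. They range from transcription factors to storage proteins and proteins of desiccation tolerance. *CRA1*, which encodes the 12S globulin cruciferin, had 3804 and 4226 TPM in *ein6-1 een-1* and 67.9 and 105 TPM in *ein2-45* (log2 fold change 5.55, SE 0.32, adjusted p = 8.56e-09). *CRC*, another cruciferin gene, had 5469 and 6119 TPM in *ein6-1 een-1* and 87.3 and 128 TPM in *ein2-45*. The storage albumin gene *SESA5* had 1758 and 1964 TPM in *ein6-1 een-1* and 12.9 and 30.0 TPM in *ein2-45* (log2 fold change 6.49, SE 0.474, adjusted p = 8.34e-08). In each case the lower *ein6-1 een-1* library exceeded the higher *ein2-45* library by more than an order of magnitude.

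The oleosins, which coat seed oil bodies, were split. *OLEO1* had 386 and 451 TPM in *ein6-1 een-1* and 4.03 and 10.6 TPM in *ein2-45* (log2 fold change 5.78), and *OLEO2* and *OLEO4* had log2 fold changes of 4.24 and 5.32. *OLEO3*, the exception of the list, had 94.8 and 96.3 TPM in *ein6-1 een-1* and 68.7 and 81.6 TPM in *ein2-45* and did not pass the test (log2 fold change 0.35, adjusted p = 0.0812). The late-embryogenesis genes followed the storage genes. *EM6* had 1306 and 1515 TPM in *ein6-1 een-1* and 13.3 and 24.9 TPM in *ein2-45* (log2 fold change 6.19), *EM1* 357 and 385 TPM in *ein6-1 een-1* and 16.3 and 40.4 TPM in *ein2-45* (log2 fold change 3.79), and the dehydrin gene *RAB18* 1383 and 1587 TPM in *ein6-1 een-1* and 22.9 and 56.3 TPM in *ein2-45* (log2 fold change 5.32). *PER1*, a seed peroxiredoxin gene, had 446 and 438 TPM in *ein6-1 een-1* and 20.6 and 32.4 TPM in *ein2-45* (log2 fold change 4.04).

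The regulators of this programme that were detected also rose. *ABI3*, a B3-domain activator of seed genes, had 37.3 and 33.2 TPM in *ein6-1 een-1*, against 2.39 and 5.22 in *ein2-45* (log2 fold change 2.98, SE 0.248, adjusted p = 3.03e-07). *ABI5*, a bZIP factor of abscisic acid signaling, had 49.4 and 51.5 TPM in *ein6-1 een-1*, against 5.68 and 9.93 in *ein2-45* (log2 fold change 2.59), and *ABI4*, an AP2-type factor, 6.89 and 8.45 TPM in *ein6-1 een-1*, against 0.612 and 0.832 in *ein2-45* (log2 fold change 2.33). The master regulators *LEC1*, *LEC2* and *FUS3*, and the dormancy gene *DOG1*, stayed under 0.5 TPM in all 4 libraries and were not tested. The second *ein2-45* library had the higher level for each of the 19 tested genes, with 602 TPM summed over the list against 356 TPM in the first, still far below the 16280 and 18233 TPM of the *ein6-1 een-1* libraries.

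Among the 15 largest increases of the whole comparison were further genes known from seeds, beside genes of other functions. *LCR67*, a defensin-like gene, had 3124 and 3976 TPM in *ein6-1 een-1* and 15.2 and 53.6 TPM in *ein2-45* (log2 fold change 6.89). *PAP85*, a vicilin-like storage protein gene, had 836 and 892 TPM in *ein6-1 een-1* and 5.14 and 14.4 TPM in *ein2-45* (log2 fold change 6.47), and *ATECP31*, a late-embryogenesis gene, 142 and 175 TPM in *ein6-1 een-1* and 0.67 and 1.25 TPM in *ein2-45* (log2 fold change 6.35). *M17* and *M10*, also late-embryogenesis genes, had log2 fold changes of 6.03 and 5.94. *XTH25*, a xyloglucan endotransglucosylase gene, had 206 and 235 TPM in *ein6-1 een-1* and 0.563 and 1.75 TPM in *ein2-45* (log2 fold change 6.74), and *MLP31* and the defensin gene *PDF2.1* had log2 fold changes of 6.01 and 5.85. The albumin genes *SESA1* to *SESA4* lie in tandem and are alike in sequence, so reads may be shared among them.

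Heat-shock genes rose with the seed genes. Of 9 tested, 7 rose against a background of 18.5% and none fell, with a median log2 fold change of 1.36. *HSP17.6A*, a cytosolic small heat-shock protein gene, showed the largest increase among the genes ranked, with 342 and 453 TPM in *ein6-1 een-1* and 1.56 and 3.23 TPM in *ein2-45* (log2 fold change 6.90, SE 0.394, adjusted p = 8.18e-09). *HSP17.4* had 220.0 and 288 TPM in *ein6-1 een-1* and 4.83 and 6.15 TPM in *ein2-45* (log2 fold change 5.29). *HSP101*, the disaggregase, had 17.3 and 20.3 TPM in *ein6-1 een-1* and 4.75 and 4.37 TPM in *ein2-45*, *HSP90.1* 24.3 and 28.3 TPM in *ein6-1 een-1* and 4.75 and 4.79 TPM in *ein2-45*, and *HSP70* 62.7 and 64.6 TPM in *ein6-1 een-1* and 24.2 and 24.3 TPM in *ein2-45*. Their regulator *HSFA2* had 3.91 and 2.72 TPM in *ein6-1 een-1* and 1.15 and 0.95 TPM in *ein2-45* (log2 fold change 1.06, adjusted p = 0.00224), while *HSP18.2* (log2 fold change 0.40, adjusted p = 0.409) and *HSP17.6II* (log2 fold change 0.03, adjusted p = 0.938) were low in both genotypes and did not pass.

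The other genotypes fell on both sides of *ein2-45*. *CRA1* had 795 and 740.5 TPM in L*er*, 12.5 and 10.9 in *ein6-1* and 477 and 1033 in *een-1*, so L*er* and *een-1* lay between the double mutant and *ein2-45*, and the *ein6-1* single mutant lay below *ein2-45*. Summed over the list, the air libraries had 3347 and 3159 TPM in L*er*, 238 and 253 TPM in *ein6-1*, and 2067 and 4522 TPM in *een-1*. The dry-seed markers *CRA1*, *OLEO1* and *EM6* all rose (3 of 3), and summed to 5496 and 6192 TPM in *ein6-1 een-1* and 85.2 and 141 TPM in *ein2-45*. The part of seed material in this result was not tested. In bulk samples such as whole seedlings, more cells of a type and more RNA per cell cannot be told apart.

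Genes of photosynthesis and chlorophyll synthesis were the most strongly lowered group. Of 19 tested, 18 fell and none rose, against a background of 21.1% lower, with a median log2 fold change of -2.91. *CA1*, a chloroplast carbonic anhydrase gene, had 0.701 and 0.80 TPM in *ein6-1 een-1* and 177 and 132 TPM in *ein2-45* (log2 fold change -6.46, SE 0.316, adjusted p = 2.35e-09). *CAB1*, which encodes a light-harvesting chlorophyll a/b protein, had 6.36 and 13.1 TPM in *ein6-1 een-1* and 999.9 and 616 TPM in *ein2-45* (log2 fold change -6.27, SE 0.362, adjusted p = 8.69e-09). *LHCB5*, another antenna gene, had 12.4 and 19.9 TPM in *ein6-1 een-1* and 363 and 304 TPM in *ein2-45* (log2 fold change -4.31). The *ein6-1 een-1* libraries were the low ones in each case, and the groups did not overlap.

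The decrease covered the antenna, both photosystems and carbon fixation. The antenna genes *LHCB3* and *LHCB6* had log2 fold changes of -4.53 and -4.62, and *LHCA1* and *LHCA3* of photosystem I of -4.02 and -4.74. The Rubisco small subunit gene *RBCS1B* had 6.64 and 13.9 TPM in *ein6-1 een-1* and 345 and 310.0 TPM in *ein2-45* (log2 fold change -4.94), and *RBCS1A*, the most abundant of the list, had 658 and 927 TPM in *ein6-1 een-1* and 2476 and 2657 TPM in *ein2-45* (log2 fold change -1.71). Among the other largest decreases were *PSAG* and *PSAK* of photosystem I (-4.76 and -4.61), *PSBQ-2* of photosystem II (-5.08), the carbonic anhydrase gene *CA2* (-4.77) and *PTAC16* of the plastid nucleoid (-4.62), all as log2 fold changes. The *CAB* and *RBCS* genes are close copies, and reads may be shared within each family.

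Among chlorophyll synthesis genes the decrease was unequal. *GUN5*, the magnesium chelatase subunit gene, had 1.81 and 2.4 TPM in *ein6-1 een-1* and 48.1 and 45.5 TPM in *ein2-45* (log2 fold change -3.95, SE 0.19, adjusted p = 2.16e-09). *HEMA1*, at the start of the pathway, had 11.7 and 14.2 TPM in *ein6-1 een-1* and 29.1 and 26.5 TPM in *ein2-45* (log2 fold change -1.05). Of the protochlorophyllide reductase genes *PORB* had 153 and 224 TPM in *ein6-1 een-1* and 882 and 989 TPM in *ein2-45* (log2 fold change -2.33) and *PORA* 187 and 259.8 TPM in *ein6-1 een-1* and 662 and 839 TPM in *ein2-45* (log2 fold change -1.75). Of the transcription factors of chloroplast development, *GLK1* did not pass the test (log2 fold change -0.36, adjusted p = 0.191), and *GLK2* did (log2 fold change -0.57, adjusted p = 0.0117) but lost its call on unscaled TPM (adjusted p = 0.165) and without the first *ein6-1 een-1* library (adjusted p = 0.18).

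In the other genotypes *LHCB5* had 129.7 and 147 TPM in L*er*, 220.2 and 217 in *ein6-1* and 100.1 and 141 in *een-1*. Summed over the list, *ein6-1 een-1* had 1343 and 1946 TPM, *ein2-45* 7659 and 7890 TPM, L*er* 3595 and 4025 TPM, *ein6-1* 5291 and 5910 TPM, and *een-1* 4222 and 5411 TPM. The double mutant was thus lowest and *ein2-45* highest, with the other 3 between. The light-grown shoot markers *ELIP1*, *ELIP2* and *LHCB2.1* fell with the list (3 of 3), and summed to 2.27 and 2.31 TPM in *ein6-1 een-1* and 52.7 and 42.2 TPM in *ein2-45*. Their part in the result was not tested.

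**Figure D2:**
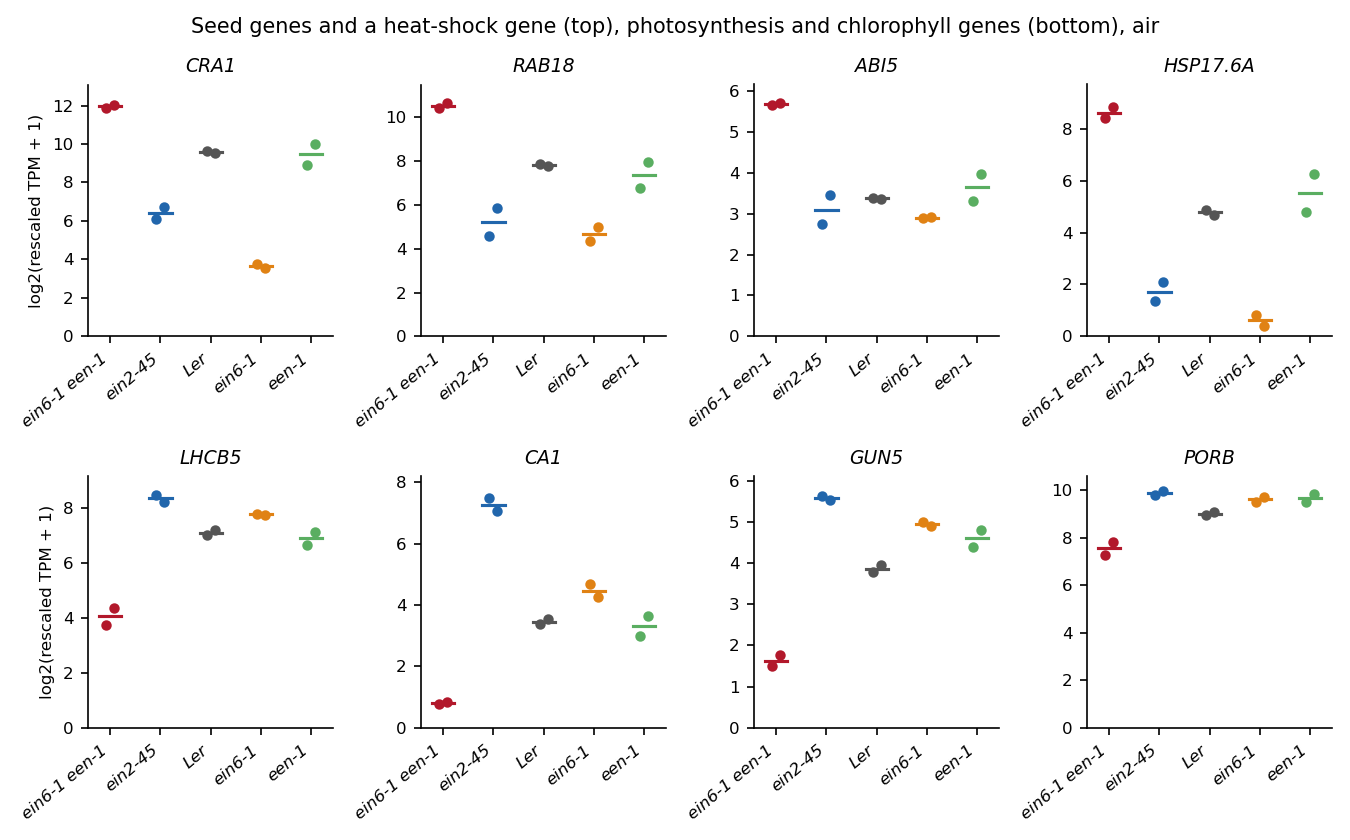
Level in air as log2(rescaled TPM + 1) on the vertical axis of 3 seed genes and 1 heat-shock gene (top) and 4 genes of photosynthesis and chlorophyll synthesis (bottom), by genotype on the horizontal axis, with the 2 libraries as points and their mean as a line. *ein6-1 een-1* is the highest genotype in the top row and the lowest in the bottom row, for example 1.81 and 2.4 TPM of *GUN5* in *ein6-1 een-1* against 48.1 and 45.5 TPM in *ein2-45*.

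Growth genes of the elongating hypocotyl were lower in the double mutant. Of 17 cell wall and elongation genes tested, 14 fell against a background of 21.1% and none rose, with a median log2 fold change of -1.08. *XTH24*, a xyloglucan endotransglucosylase gene, had 73.1 and 65.5 TPM in *ein6-1 een-1* and 462 and 278 TPM in *ein2-45* (log2 fold change -2.36), and *XTH4* 780.4 and 795 TPM in *ein6-1 een-1* and 1800.2 and 1545 TPM in *ein2-45* (log2 fold change -1.08). The expansin gene *EXPA8* had 226 and 243 TPM in *ein6-1 een-1* and 645 and 574 TPM in *ein2-45* (log2 fold change -1.37, SE 0.135, adjusted p = 1.72e-06). The *SAUR19* to *SAUR24* genes, auxin-induced promoters of cell expansion, all fell, with log2 fold changes of -1.12 to -1.66. They are near-identical neighbours, and how reads were divided among them is uncertain.

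Auxin genes fell with them. Of 20 tested, 13 fell and 1 rose, against backgrounds of 21.1% and 18.5%, with a median log2 fold change of -0.74. The primary response genes *IAA5* (1.59 and 2.66 TPM in *ein6-1 een-1*, against 12.9 and 11.2 in *ein2-45*) and *IAA6* (28.1 and 32.6 TPM in *ein6-1 een-1*, against 106 and 91.2 in *ein2-45*) had log2 fold changes of -2.08 and -1.67. *IAA19* had 143 and 155 TPM in *ein6-1 een-1*, against 331 and 341 in *ein2-45* (log2 fold change -1.17), and *GH3.5*, which conjugates auxin to amino acids, 26 and 24.2 TPM in *ein6-1 een-1*, against 80.0 and 68.9 in *ein2-45* (log2 fold change -1.53). The biosynthesis gene *YUC8* fell (log2 fold change -0.90), and *TAA1* did not pass (log2 fold change -0.04, adjusted p = 0.81). The transporter genes *AUX1* and *PIN3* fell (log2 fold changes -0.72 and -0.57), but on unscaled TPM neither passed (adjusted p = 0.0512 and 0.222). The 1 gene that rose was *TAR2* (log2 fold change 0.47, adjusted p = 0.0344), and it lost the call when any 1 of the 4 libraries was left out, with an adjusted p of 0.0572 to 0.186.

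Root hair genes moved the other way. Of 11 tested, 8 rose against a background of 18.5% and none fell, with a median log2 fold change of 0.89. *EXPA18*, an expansin gene of root hairs, had 130.0 and 119.5 TPM in *ein6-1 een-1* and 33.7 and 48 TPM in *ein2-45* (log2 fold change 1.61, SE 0.273, adjusted p = 0.000295). *PRP3*, a hair wall protein gene, had 302 and 266 TPM in *ein6-1 een-1* and 79.2 and 100.3 TPM in *ein2-45*, and *LRX1*, a leucine-rich extensin gene, 55 and 51.1 TPM in *ein6-1 een-1* and 13.3 and 16.3 TPM in *ein2-45* (log2 fold change 1.78). The regulator *RHD6* had a log2 fold change of 0.82 and lost the call without the first *ein6-1 een-1* library (adjusted p = 0.0942), while *RSL4* (log2 fold change 0.55, adjusted p = 0.0507), *GL2* (log2 fold change -0.21, adjusted p = 0.246) and *CPC* (log2 fold change -0.05, adjusted p = 0.88) did not pass. *PRP3* in the other genotypes had 407 and 336 TPM in L*er*, 161 and 275 in *ein6-1* and 163 and 129 in *een-1*, so *ein2-45* was the lowest of the 5. Of the root markers *COBL9*, itself a root hair gene, rose (1 of 5).

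Of 7 flavonoid genes tested, 5 fell, against a background of 21.1%, and 1 rose, against 18.5%. *TT4*, the chalcone synthase gene at the entry of the pathway, had 9.78 and 15.1 TPM in *ein6-1 een-1* and 61.8 and 43.4 TPM in *ein2-45* (log2 fold change -2.0), and *FLS1*, the flavonol synthase gene, 2.17 and 2.32 TPM in *ein6-1 een-1* and 11.8 and 8.38 TPM in *ein2-45* (log2 fold change -1.76). *TT5*, *F3H* and *MYB111* also fell (log2 fold changes -1.58, -2.08 and -1.02). *TT7*, the flavonoid hydroxylase gene, rose, with 5.87 and 4.62 TPM in *ein6-1 een-1* and 1.000 and 0.832 TPM in *ein2-45* (log2 fold change 1.70, SE 0.165, adjusted p = 1.51e-06).

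**Figure D3:**
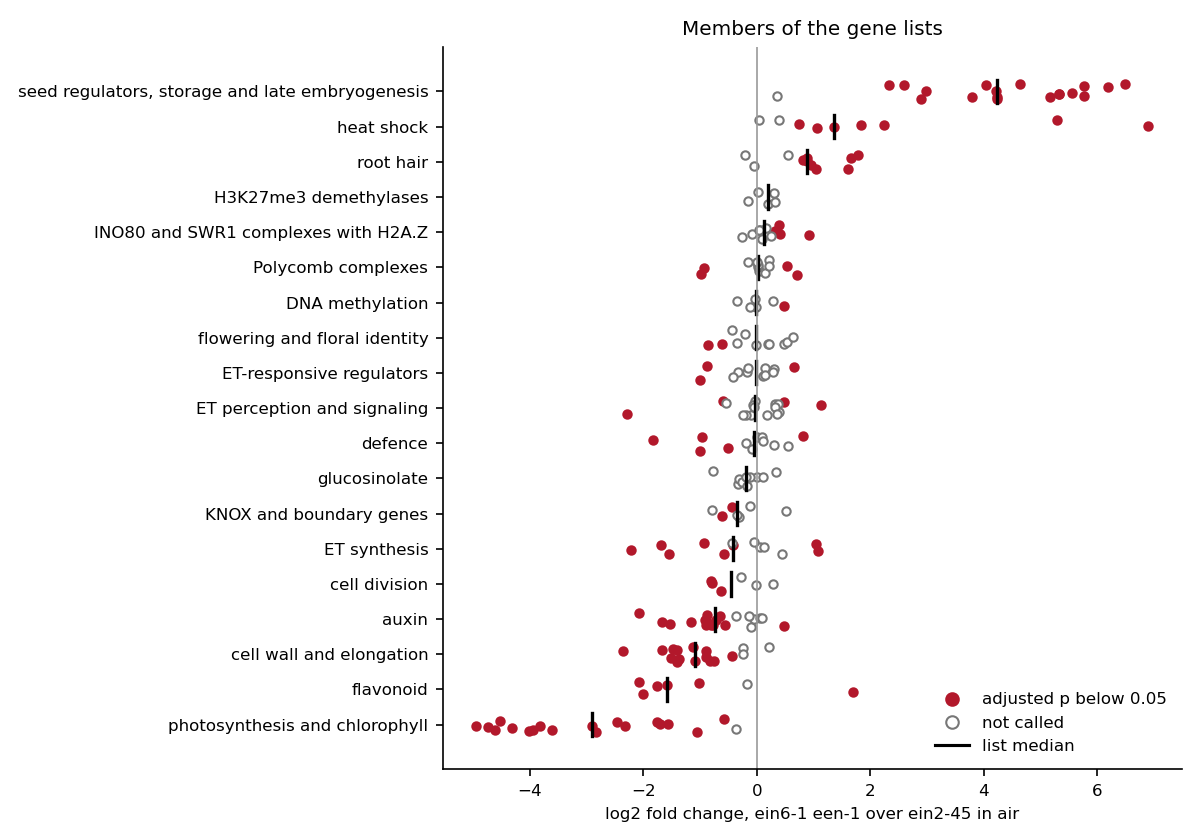
Log2 fold change in air, *ein6-1 een-1* over *ein2-45*, on the horizontal axis for every tested member of 19 gene lists on the vertical axis, sorted by list median (black line). Filled points passed an adjusted p of 0.05 and open points did not. Seed genes lie at the right with a median of 4.24 and photosynthesis genes at the left with a median of -2.91.

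Of 17 ET perception and signaling genes tested, 2 rose and 2 fell, against backgrounds of 18.5% and 21.1%, with a median log2 fold change of -0.04. The receptor gene *ETR2*, whose transcript ET induces, had 2.97 and 2.72 TPM in *ein6-1 een-1* and 0.728 and 0.779 TPM in *ein2-45* (log2 fold change 1.13, SE 0.155, adjusted p = 4.58e-05). Both values lay far below the 14.8 and 15.9 TPM of L*er*. *ETP1*, an F-box gene that targets EIN2, had 22.9 and 26 TPM in *ein6-1 een-1* and 16.7 and 17.9 TPM in *ein2-45* (log2 fold change 0.47, adjusted p = 0.00262). Besides *EIN2*, *RTE1* fell (log2 fold change -0.60, adjusted p = 0.0251), but it lost the call on unscaled TPM (adjusted p = 0.104) and without the first *ein2-45* library (adjusted p = 0.233). The transcription factor gene *EIN3* had 83.7 and 83.1 TPM in *ein6-1 een-1* and 96.3 and 83 TPM in *ein2-45* (log2 fold change -0.10, adjusted p = 0.498), and *EBF1*, *EIL1*, *CTR1* and *ETR1* did not pass either.

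ET synthesis genes were divided, with 2 higher and 6 lower of 13 tested, against backgrounds of 18.5% and 21.1%. Among the ACC synthase genes *ACS8* had 1.31 and 1.69 TPM in *ein6-1 een-1* and 10.4 and 10.8 TPM in *ein2-45* (log2 fold change -2.21) and *ACS5* 17.2 and 16.4 TPM in *ein6-1 een-1* and 53.7 and 48.5 TPM in *ein2-45* (log2 fold change -1.55), whereas *ACS7* had 11.2 and 8.56 TPM in *ein6-1 een-1* and 3.5 and 5.04 TPM in *ein2-45* (log2 fold change 1.05). Among the ACC oxidase genes *ACO1* had 16.9 and 16.4 TPM in *ein6-1 een-1* and 6.74 and 8.07 TPM in *ein2-45* (log2 fold change 1.08), and *ACO3* and *ACO4* had log2 fold changes of -1.69 and -0.94. *ACS6* fell by a small amount (log2 fold change -0.57) and did not pass on unscaled TPM (adjusted p = 0.132). Of 12 ET-responsive regulators tested, 1 rose and 2 fell, which is no more than the same backgrounds. *RAV1* and *RAV2* fell (log2 fold changes -1.0 and -0.88) and *ERF11* rose (log2 fold change 0.66, adjusted p = 0.0153). The call of *ERF11* was lost without the second *ein2-45* library (adjusted p = 0.141).

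Among chromatin genes, none of the 5 H3K27me3 demethylase genes passed the test, with 0 at an unadjusted p below 0.05 as well. Of 12 Polycomb genes tested, 2 fell and 2 rose, against backgrounds of 21.1% and 18.5%. *RING1B* and *BMI1A*, which encode parts of the H2A ubiquitin ligase, fell (log2 fold changes -0.98 and -0.93), and *RING1A* and *BMI1B* rose (0.71 and 0.54). *BMI1B* lost its call without the first *ein2-45* library (adjusted p = 0.241). The methyltransferase genes *CLF* and *SWN* did not pass (log2 fold change 0.21, adjusted p = 0.365 and log2 fold change -0.16, adjusted p = 0.47). Of 12 INO80, SWR1 and H2A.Z genes, 4 rose, against a background of 18.5%. *INO80*, the ATPase gene of the complex that EEN belongs to, had 28.6 and 26.2 TPM in *ein6-1 een-1* and 13 and 14.8 TPM in *ein2-45* (log2 fold change 0.93, SE 0.207, adjusted p = 0.00238), with 21.4 and 22.7 TPM in *een-1* and 9.96 and 12.4 TPM in L*er*. *RIN1*, *ARP4* and *ARP5* had log2 fold changes of 0.41, 0.32 and 0.39. None of the 3 calls held with every library left out in turn, and the highest adjusted p was 0.132 for *RIN1* without the second *ein2-45* library, and of 0.19 for *ARP4* and 0.313 for *ARP5* without the first. On unscaled TPM *ARP5* did not pass either (adjusted p = 0.0908).

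The remaining lists were read against the same backgrounds, 21.1% lower and 18.5% higher. Of 12 defence genes tested, 4 fell and 1 rose. Of 6 cell division genes 3 fell, and of 11 flowering genes 2 fell. Among 12 defence genes *VSP2*, a jasmonate-responsive gene, had 0.534 and 1.51 TPM in *ein6-1 een-1* and 6.33 and 5.63 TPM in *ein2-45* (log2 fold change -1.83), *EDS1* and *VSP1* fell (log2 fold changes -0.99 and -0.97), and *JAZ10* rose (0.81). *NPR1* also fell (log2 fold change -0.51, adjusted p = 0.0126) but not on unscaled TPM (adjusted p = 0.297), and without the first *ein2-45* library neither *NPR1* nor *VSP1* passed (adjusted p = 0.075 and 0.057). Without the first *ein6-1 een-1* library *NPR1* had an adjusted p of 0.132. Of 6 cell division genes *KN* and *CDKB2;1* fell (log2 fold changes -0.81 and -0.79), as did *CYCB1;2* (-0.64), which did not pass on unscaled TPM (adjusted p = 0.051). Of 11 flowering genes the floral repressor *FLM* fell (log2 fold change -0.61, adjusted p = 0.00394), though not on unscaled TPM (adjusted p = 0.125), and the low *FT* fell (log2 fold change -0.86, adjusted p = 0.0224), though not without the second *ein6-1 een-1* library (adjusted p = 0.114). *FLC* had 3.56 and 4.33 TPM in *ein6-1 een-1* and 5.41 and 5.1 TPM in *ein2-45* (log2 fold change -0.34, adjusted p = 0.339).

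Against the same backgrounds, *KNAT1* and *KNAT6* fell among 7 KNOX and boundary genes (log2 fold changes -0.62 and -0.44). Neither passed on unscaled TPM (adjusted p = 0.101 and 0.325). *KNAT6* also lost the call without the first *ein2-45* library (adjusted p = 0.104). The 1 glucosinolate gene of 11 that fell, *CYP79B3* (log2 fold change -0.29, adjusted p = 0.0194), did not pass on unscaled TPM (adjusted p = 0.661) or without the first *ein2-45* library (adjusted p = 0.139). Of 6 DNA methylation genes *DRM2* rose (log2 fold change 0.49, adjusted p = 0.00519), though not without the first *ein2-45* library (adjusted p = 0.0606).

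To see on which side a difference arose, the other genotypes were placed on a scale from 0, the level of *ein2-45*, to 1, the level of *ein6-1 een-1*, over the 8162 called genes. The median position was 0.33 for L*er*, 0.19 for *ein6-1* and 0.54 for *een-1*. For 60.1% of the genes L*er* lay between the genotypes, for 26.0% it lay beyond *ein2-45* and for 13.8% beyond *ein6-1 een-1*. Of the called genes, 1741 (21.3%) had 5 genotypes that split into a high and a low set with a gap of at least 0.5 on the log2 scale between the sets, a size chosen after the values were seen. *ein6-1 een-1* stood alone for 570 higher and 471 lower genes, and *ein2-45* stood alone for 432 genes, 118 of them higher in *ein6-1 een-1* and 314 lower. Other classes put the double mutant with 1 or more of the other genotypes. The largest median log2 fold change of any class, 4.21, was that of 104 genes low in both *ein2-45* and *ein6-1*. These were high in the double mutant, L*er* and *een-1*, and 62 genes showed the opposite split. A gene with more than 1 such gap counts in each class it meets, as 227 of the genes did. These classes follow from the contrast and are given without a test.

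A set of 44 genes was low in both genotypes that carry *ein6-1* and only 4 were high there. *CEL2*, a cellulase gene, had 1.04 and 1.55 TPM in *ein6-1 een-1* and 32.8 and 37.4 TPM in *ein2-45*, with 20.8 and 22.5 TPM in L*er*, 4.86 and 5.29 in *ein6-1* and 26.3 and 30.5 in *een-1* (log2 fold change -3.98, SE 0.227, adjusted p = 8.18e-09). *AGL18*, a MADS-box gene that represses flowering, had 1.88 and 1.29 TPM in *ein6-1 een-1* and 10.5 and 9.62 TPM in *ein2-45*, with 9.17 and 12.1 TPM in L*er*, 1.35 and 0.762 in *ein6-1* and 8.76 and 8.35 in *een-1* (log2 fold change -2.1). In *CEL2* the double mutant was lower than the single mutant, while in *AGL18* both were alike. *AT2G44210*, *AT1G22140* and *AT3G02790* were in the same set, with log2 fold changes of -2.97, -2.19 and -2.45. Of 42 protein-coding members 5 (11.9%) held one of the REF6 motif spellings in the 300 bases around the gene start, against 7.33% of all such windows. Within the gene, *CEL2* held 8 matches in 3035 bases and *AGL18* 3 in 2507 bases, against 0.441 matches per kb over the 19868 protein-coding genes tested. *CDPK9*, described below and not low in *ein6-1*, also exceeded that rate, with 0.827 per kb. Matches within genes were not counted over the whole set, so these examples say nothing about its rate. The 3 of *AGL18* and the first 2 of *CEL2* by position are shown in the same way, as examples from the set.
*AGL18*, chr3:21234191-21234198, minus strand, exon, untranslated: aacaggggttgCTCTGTTTtcatttacttt
*AGL18*, chr3:21234723-21234730, minus strand, intron or exon edge: tggtagagagtCTCTGCTTaccacagcttc
*AGL18*, chr3:21235188-21235195, minus strand, intron or exon edge: catttgaggagCTCTGTTCgtacctgtatc
*CEL2*, chr1:614062-614069, minus strand, coding exon: aaatacttaacCTCTGCTCgcaccgtcgct
*CEL2*, chr1:614273-614280, minus strand, coding exon: agtttcatttgCTCTGTTCtacctggagca

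With *een-1* the double mutant shared 117 high and 113 low genes. Apart from *AQI*, the low ones included *CDPK9*, a calcium-dependent protein kinase gene, with 0.771 and 1.26 TPM in *ein6-1 een-1* and 18.7 and 15.9 TPM in *ein2-45* and 3.61 and 3.36 TPM in *een-1* (log2 fold change -3.19, SE 0.152, adjusted p = 2.04e-09). *VTE5*, the phytol kinase gene of tocopherol synthesis, had 0.701 and 0.372 TPM in *ein6-1 een-1* and 7.92 and 9.09 TPM in *ein2-45* and 3.11 and 3.38 TPM in *een-1* (log2 fold change -2.63), and *JR1*, a jasmonate-responsive lectin gene, 152 and 156 TPM in *ein6-1 een-1* and 972 and 756 TPM in *ein2-45* and 187 and 194 TPM in *een-1*. In *CDPK9* and *VTE5* the double mutant was below *een-1*, and L*er* and *ein6-1* were at the level of *ein2-45*. Low in both single mutants and the double mutant were 18 genes. *SADHU3-2*, a noncoding retroelement, had 3.27 and 2.68 TPM in *ein6-1 een-1* and 81.8 and 91.1 TPM in *ein2-45*, with 77.5 and 60.4 TPM in L*er*, 5.69 and 2.76 in *ein6-1* and 0.926 and 0.339 in *een-1* (log2 fold change -4.46). *AT4G19950* had 0 and 0.112 TPM in *ein6-1 een-1* and 14.2 and 11.3 TPM in *ein2-45*, with 14.3 and 14.4 TPM in L*er*, 0.554 and 1.46 in *ein6-1* and 0.327 and 0.478 in *een-1*. *MEK1*, a MAP kinase kinase gene, and *OCT6*, a transporter gene, had log2 fold changes of -1.99 and -1.8.

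Other genes were set apart by *ein2-45*. *CER4*, the fatty acyl reductase gene of wax alcohols, had 27.8 and 21.7 TPM in *ein6-1 een-1* and 0.165 and 0.192 TPM in *ein2-45*, with 34.7 and 38.1 TPM in L*er*, 29.5 and 28 in *ein6-1* and 21.3 and 18.8 in *een-1* (log2 fold change 4.44, SE 0.207, adjusted p = 1.94e-09). Its neighbour *AT4G33780* had 22.9 and 22.5 TPM in *ein6-1 een-1* and 0.612 and 0.235 TPM in *ein2-45*, and *MRD1* 12.6 and 14.3 TPM in *ein6-1 een-1* and 0.262 and 0.288 TPM in *ein2-45*, with 24.4 and 18.1 TPM in L*er*. *PSK1*, a phytosulfokine precursor gene, had 118 and 117 TPM in *ein6-1 een-1* and 9.78 and 14.1 TPM in *ein2-45* (log2 fold change 3.22). In each of these *ein2-45* stood below the other 4 genotypes. It stood above them in *CA1* and *PSBQ-2*, described above, and in *ESP*, which directs glucosinolate breakdown toward nitriles, with 4.13 and 2.44 TPM in *ein6-1 een-1* and 147 and 80.4 TPM in *ein2-45* and 11.5 and 11 TPM in L*er* (log2 fold change -4.71). In *CA1*, *PSBQ-2* and *ESP* the double mutant was also the lowest of the 5 genotypes, with the other 3 between it and *ein2-45*.

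**Figure D4:**
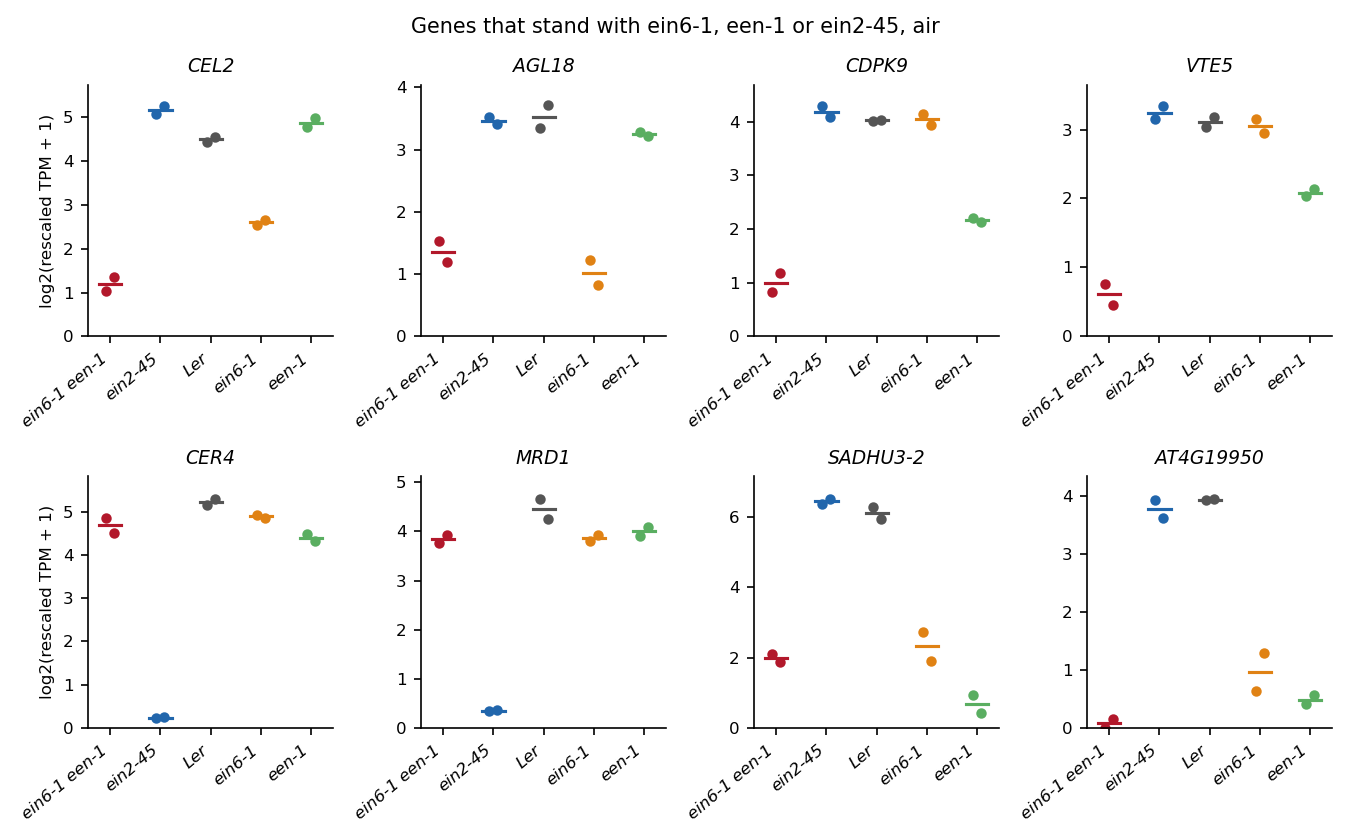
Level in air as log2(rescaled TPM + 1) on the vertical axis of 8 genes by genotype on the horizontal axis, with the 2 libraries as points and their mean as a line. *CEL2* and *AGL18* are low in both genotypes with *ein6-1*, *CDPK9* and *VTE5* in both with *een-1*, *CER4* and *MRD1* in *ein2-45* alone, and *SADHU3-2* and *AT4G19950* in the double mutant and both single mutants.

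At a minimum of 5 TPM in both libraries of 1 genotype and under 0.5 TPM in both of the other, 22 genes were detected in *ein6-1 een-1* and 10 in *ein2-45*. All 22 were called and 9 of the 10. *MEE8*, a bHLH gene, had 18.7 and 21.3 TPM in *ein6-1 een-1* and 0 and 0.331 TPM in *ein2-45*, *GASA2*, a gibberellin-responsive gene, 15.1 and 25.9 TPM in *ein6-1 een-1* and 0.33 and 0 TPM in *ein2-45*, and *AT1G29680* 16.1 and 17 TPM in *ein6-1 een-1* and 0 and 0 TPM in *ein2-45*. On the other side stood *ELIP2* with 0 and 0.177 TPM in *ein6-1 een-1* and 21.6 and 15.6 TPM in *ein2-45*, *PnsB1* of the NDH complex with 0 and 0.251 TPM in *ein6-1 een-1* and 13.1 and 13 TPM in *ein2-45*, and *BBX15*, a B-box factor gene, with 0.228 and 0.40 TPM in *ein6-1 een-1* and 7.56 and 5.28 TPM in *ein2-45*. The snoRNA gene *SNOR77* (log2 fold change 4.57, adjusted p = 0.0348) and *AT4G39361* (log2 fold change -6.57, adjusted p = 0.042), both listed at 0 in the lower genotype, lost the call when any 1 of the 4 libraries was left out (adjusted p up to 0.14 and 0.217). The gene not called, *AT1G25150* (log2 fold change -3.82, adjusted p = 0.101), was listed at 0 in 1 of the 2 libraries of L*er*, of *ein6-1* and of *een-1*.

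A stretch of chromosome 3, chr3:10073082-10461000 in TAIR10.1, stood out after the values were seen. Of 61 genes tested there, 48 were called, 46 of them lower in *ein6-1 een-1*, with a median log2 fold change of -0.84. On unscaled TPM 36 were lower. The 212 windows of 500 kb with at least 20 tested genes had a median of 39.8% called genes. Among these the window over this stretch was the highest with 71.4%. The higher 2 were *OLEO4* and *AT3G27870*. *ein2-45* lay above all 8 other air libraries for 48 of the 61 genes, against 2048 of 20592 (9.95%) in the genome. Its median log2 difference from L*er* was 0.85 in the stretch and 0.03 within 500 kb on either side, and that of *ein6-1 een-1* from L*er* was -0.07 and -0.05. Examples from housekeeping functions were *PBB1*, a proteasome subunit gene, with 102 and 111 TPM in *ein6-1 een-1* and 222 and 207 TPM in *ein2-45*, *SDH2-1*, a succinate dehydrogenase gene, with 77.8 and 71.1 TPM in *ein6-1 een-1* and 121 and 121 TPM in *ein2-45*, and *PUX1* with 48.5 and 48.9 TPM in *ein6-1 een-1* and 93 and 92.8 TPM in *ein2-45*. The double mutant was at the level of L*er* there (122 and 117 TPM for *PBB1*), so *ein2-45* was the genotype that stood apart. The number of gene copies was not measured in these libraries. Without the stretch, an alternative chosen after seeing the data, 8095 genes were called.

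**Figure D5:**
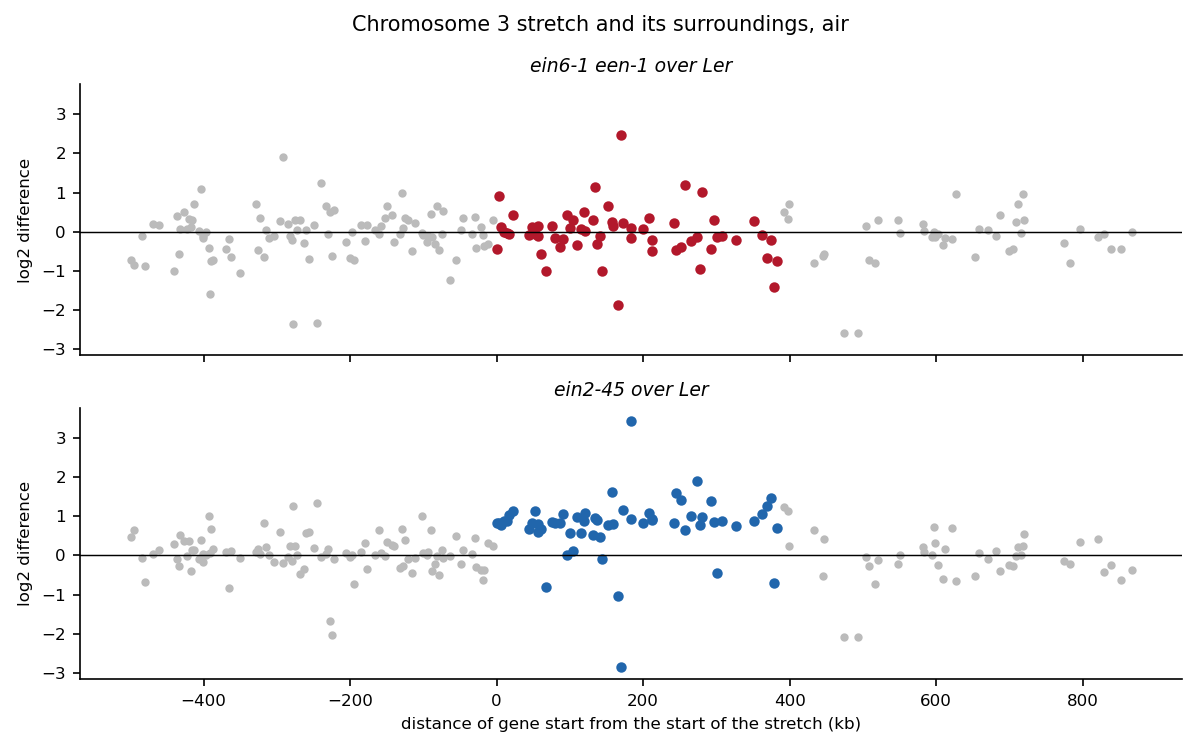
Log2 difference from L*er* in air of each tested gene in and around the chromosome 3 stretch, for *ein6-1 een-1* (top) and *ein2-45* (bottom), against the distance of the gene start from the start of the stretch in kb. Colored points are the 61 genes of the stretch and grey points the 144 genes within 500 kb of it. In *ein2-45* the colored points have a median of 0.85, against -0.07 in *ein6-1 een-1*.

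Between the ends of the *een-1* inversion, *AQI* and *EEN* on chromosome 4 (chr4:17925180-18008071), 14 of 29 genes tested were called, against 39.6% of all genes, 6 of them higher and 8 lower. After *AQI* the largest changes were those of *AT4G38410*, with 4.03 and 3.43 TPM in *ein6-1 een-1* and 1.17 and 0.544 TPM in *ein2-45* (log2 fold change 1.37), and of *EXLA2*, an expansin-like gene, with 26.2 and 28.6 TPM in *ein6-1 een-1* and 77 and 66.3 TPM in *ein2-45* (log2 fold change -1.35).

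Gene sets that the study gives as altered in chromatin in the double mutant, or as bound by EEN, were then read for RNA, using set membership only. Of 423 genes with reduced H3K4me3 against L*er*, a mark of active genes, 401 were tested, and 284 were lower and 20 higher in *ein6-1 een-1* than in *ein2-45* (median log2 fold change -0.98). Of 54 genes with H3K27me3 gained over *ein6-1*, 46 were tested, and 20 were lower and 4 higher (median -0.36). Of 17 with H2A.Z gained over *een-1*, 13 were tested, and 8 were lower and 2 higher (median -0.58). Of 183 with H2A ubiquitination gained over L*er*, 137 were tested, and 53 were lower and 20 higher (median -0.30). Of 1077 genes that the study lists as top-ranked for EEN binding, 919 were tested, and 303 were lower and 109 higher (median -0.19). That binding was mapped in seedlings that overexpress tagged EEN in the Col-0 background, not in L*er*. The shares for comparison are 21.1% lower and 18.5% higher over all genes. The sets with altered marks were chosen in the same double mutant and against other genotypes than *ein2-45*.

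*EIN2* belonged to both the H3K27me3 and the H2A.Z set. *AAPT2*, an aminoalcohol phosphotransferase gene, did so too, with 34.3 and 29.8 TPM in *ein6-1 een-1* and 75.1 and 66.1 TPM in *ein2-45* (log2 fold change -1.12, SE 0.132, adjusted p = 1.09e-05). In the H3K27me3 set *CDPK9* had the lowest log2 fold change, followed by *EIN2*, *AT1G01630* (20.4 and 23.7 TPM in *ein6-1 een-1* and 109 and 94.6 TPM in *ein2-45*) and the phosphate transporter gene *PHT4;1* (0.867 and 1.22 TPM in *ein6-1 een-1* and 7.23 and 8.4 TPM in *ein2-45*). The factor gene *RAV1* of the same set had 27.9 and 28.8 TPM in *ein6-1 een-1* and 58.4 and 56.8 TPM in *ein2-45*. In the H2A.Z set *AGL18* was lowest after *EIN2*, and *OPR3*, of jasmonate synthesis, had 12.9 and 13.5 TPM in *ein6-1 een-1* and 25.9 and 25.2 TPM in *ein2-45*, whereas *AGD9* rose, with 131 and 130.3 TPM in *ein6-1 een-1* and 62.7 and 58.1 TPM in *ein2-45* (log2 fold change 1.1).

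The difference between the genotypes was largely found again after ET. There 6491 genes (31.5%) were called, 2971 higher (14.4%) and 3520 lower (17.1%). Of the genes higher in air 2397 were also higher after ET, which is 62.8% of the air calls and 80.7% of the ET calls, and of those lower 2960 were lower again (68.1% and 84.1%). The ET libraries did not enter the means compared in air, but they are from the same genotypes. Both comparisons also used 1 estimate of the spread from all 20 libraries. Their calls are therefore not independent, and the overlap is no separate test. All 18 seed genes called in air were higher after ET (median log2 fold change 4.17), and 17 of the photosynthesis genes were lower (median -2.04). *CRA1* had 2813 and 2701 TPM in *ein6-1 een-1* and 97.7 and 106 TPM in *ein2-45* after ET, and *LHCB5* 31 and 39.1 TPM in *ein6-1 een-1* and 258 and 258 TPM in *ein2-45*. *EIN2* had 9.1 and 9.76 TPM in *ein6-1 een-1* and 41.3 and 45.6 TPM in *ein2-45*. The difference itself changed between ET and air for 26 genes (0.126%), with 22 (0.107%) toward higher and 4 (0.0194%) toward lower values after ET.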

How the data were processed

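Total RNA of etiolated seedlings was sequenced as single reads. The authors used STAR 2.6.0c for alignment against TAIR10 and RSEM for quantification, and deposited TPM, which sum to the same total in each library. TPM holds no counts, so edgeR, the tool of the study, was not used. TPM of 20 libraries (10 groups of 2) was divided by median-of-ratios factors from 19804 genes. The 20592 genes of 33602 with at least 1 TPM in 2 libraries were tested as log2(TPM + 1) with limma 3.58.1 in R 4.3.3 (group means, trended variance, 10 residual degrees of freedom, Benjamini-Hochberg adjustment, threshold 0.05). Gene names and positions came from RefSeq TAIR10.1, which matched 32835 locus IDs. Members and gene lists were chosen with earlier results of these data known. Named genes are those the mutations hit, the 15 largest changes in each direction, list members, genes detected in 1 genotype, and members of the chromatin sets and of the regions. Genes that exemplify a class of genotypes were chosen after their values were seen. No 2 libraries were identical. Another deposited table had 8 columns that were not used and 4, of Col-0 and *een-2* in air, that were only read beside the results. No value given here comes from it. The result of 1 gene among the list members is not reported here. Alternatives covered scaling, filter, pseudocount, libraries in the fit, a replicate block and single libraries left out.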

Additional observations from a re-analysis of the deposited data

Results flagged for a closer look

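The difference between *ein6-1 een-1* and *ein2-45* itself differed between ET and air for 26 of 20592 genes (0.126%, limma interaction contrast, adjusted p below 0.05), 22 toward higher and 4 toward lower values after ET, while 1303 genes had an unadjusted p below 0.05. The following genes stand out because their genotype difference was not the same with and without the hormone.

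*IAA5*, an auxin response gene, had 5.73 and 6.51 TPM in *ein6-1 een-1* and 11.6 and 11.4 TPM in *ein2-45* after ET, and 1.59 and 2.66 TPM in *ein6-1 een-1* and 12.9 and 11.2 TPM in *ein2-45* in air, so the difference was smaller after ET by 1.27 on the log2 scale (adjusted p = 0.0408). The call was lost in 7 of 8 fits that left out 1 library, with an adjusted p up to 0.224 without the first *ein2-45* air library, and also on unscaled TPM (0.326), with only the compared libraries (0.132) and with no minimum on TPM (0.0705). *EDF3*, an ET-responsive AP2 factor gene, had 19.5 and 18.4 TPM in *ein6-1 een-1* and 11.7 and 9.7 TPM in *ein2-45* after ET, and 10.4 and 11.6 TPM in *ein6-1 een-1* and 13.7 and 11.5 TPM in *ein2-45* in air, a change of 0.94 (adjusted p = 0.0364). This call was lost in 7 of 8 leave-one-out fits too (adjusted p up to 0.221), on unscaled TPM (adjusted p = 0.67) and with only the compared libraries (adjusted p = 0.141).

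*AT2G01021* and the snoRNA gene *AT3G24615* were listed at 0 in all air libraries and, after ET, in *ein2-45*, L*er* and *een-1*. They were thus detected only after ET in the genotypes that carry *ein6-1*. Both are short entries, at chr2:6571-6672 and chr3:8979504-8979605. Whether their signal is regulation of a gene or goes with the ribosomal RNA content of a library was not tested. In *ein6-1 een-1* after ET *AT2G01021* had 19327 and 14965 TPM (log2 difference 14.05, adjusted p = 1.59e-07), and *AT3G24615* had 320.0 and 212 TPM (log2 difference 8.03, adjusted p = 0.000107). In *ein6-1* after ET they had 14965 and 108185 TPM and 205 and 1281 TPM. Ribosomal RNA took 7.46% and 23.5% of TPM in those *ein6-1* libraries, and 8.31% and 5.37% in *ein6-1 een-1* after ET. The log2 differences against libraries at 0 depend on the added 1 TPM and are no bounds.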

How the results depend on the processing

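The air comparison called 8162 genes. Without 1 library it called 5233 to 6774 (higher 2333 to 3112, lower 2900 to 3662), and with a change of at least 2-fold also required 2433 (1077 higher, 1356 lower). Unscaled TPM gave 2324 lower calls, and the other settings 7148 to 9081 calls. The ET comparison fell to 4219 calls unscaled and 3846 to 4470 without 1 library. The genes whose difference changed between ET and air numbered 10 with only the compared libraries, 13 unscaled, 44 with a pseudocount of 5 and 6 to 31 without 1 library. The median position of L*er* was 0.28 unscaled and 0.32 to 0.38 without 1 library, that of *ein6-1* 0.19 to 0.26 and that of *een-1* 0.48 to 0.61. None of the 170 named genes reversed, but on unscaled TPM higher calls (3895) outnumbered lower ones, and the flower and pollen marker median was 0.32 with no minimum on TPM, against -0.44.

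With a replicate block 8370 genes were called (3892 higher, 4478 lower), and none of the 170 named genes changed its call. The genotypes share replicate numbers in the labels only. Deviations of same-numbered libraries correlated with 0.159 in air and -0.0848 after ET, and with 2 pairs no pairing was assumed.

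Of the 170 named genes, 13 lost the call on unscaled TPM and *OLEO3* gained it. The flavonoid median was -0.50 with no minimum on TPM, and the heat-shock median 1.61 to 2.24 under 3 settings. Depth is unknown from TPM, so no detection limit can be given for genes listed at 0.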
